A study of Homo sapiens with 3 samples.

Results

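The genes examined here mark epithelial or mesenchymal identity. They comprised 37 gene names, listed by their textbook roles with earlier results of these data known, out of 43317 gene names on the array: 21 epithelial genes (cadherins and catenins, claudins and other tight junction proteins, desmosome proteins, keratins, and regulators that keep epithelial genes on), 14 mesenchymal genes (transcription factors, structural and matrix genes, and the TGF-beta ligand and receptor) and the integrin chains ITGB1 and ITGB4, which were placed in neither class. Expression was compared in 22RV1 cells, a SPINK1-positive human prostate cancer line, between stable shSPINK1 cells and cells with a scrambled hairpin (22RV1-shSCRM). The shSPINK1 cells carried 1 of 3 lentiviral hairpins against SPINK1 (shSPINK1-1, shSPINK1-2 or shSPINK1-3), and the protocol placed transduced cells under puromycin in serum-containing medium. Each hairpin was read on 1 dual-color Agilent array, with shSPINK1 RNA in Cy5 and shSCRM RNA in Cy3. No array had swapped dyes, so the effect of the dyes on a gene and the effect of the hairpins cannot be told apart. The 3 arrays are 3 hairpins and not repeat cultures of 1 line, and p-values measure only the spread between these arrays, without that of control cultures. All values below are log2 ratios of Cy5 over Cy3 unless called brightness, and a value below 0 means less RNA in the shSPINK1 cells.

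Epithelial cells are joined by adherens junctions, in which E-cadherin binds the cadherins of neighbouring cells and catenins tie it to actin, by tight junctions, in which claudins and occludin seal the space between cells, and by desmosomes, which anchor keratin filaments. In epithelial-mesenchymal transition (EMT), factors of the SNAIL, TWIST and ZEB families repress such genes, often after a TGF-beta signal, while N-cadherin, vimentin, fibronectin and matrix proteases appear. GRHL2, OVOL and ESRP proteins act in the opposite direction. Luminal prostate cancer cells normally keep keratins 8 and 18 and E-cadherin.

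Of the 60901 gene spots on each array, 38.8% to 46.8% were well above background in a channel, and none was saturated. SPINK1 itself was at -3.71, -3.65 and -3.89 with hairpins 1, 2 and 3, a mean of -3.75 ± 0.12 (SD, n = 3 arrays). Markers of the labelled cell type were measured throughout, and those of other lineages in part. The prostate epithelial markers HOXB13, FOLH1, FOXA1, KLK2, KLK3, TMPRSS2, EPCAM, KRT8 and KRT18 were all measured, against 1 of 5 basal markers (KRT15), 3 of 8 fibroblast markers (COL1A1, DCN and LUM) and 3 of the 4 immune markers on the array. Of those other-lineage markers, 0 were called by limma with Benjamini-Hochberg adjustment over all genes, and 1 of them (LUM) had an unadjusted p under 0.05. Among the prostate markers, TMPRSS2 (-0.42, adjusted p = 0.00812 by limma), EPCAM and KRT8 were called lower and KRT18 higher. LUM (-0.30) and DCN (-0.28) were bright enough to be measured with ratios of mixed sign across hairpins, while the fibroblast markers COL1A2, COL3A1, PDGFRA, PDGFRB and THY1 were not well above background. In bulk RNA, fewer cells of a kind and less RNA per cell cannot be told apart. A gene counted as measured when the scanner software (Agilent Feature Extraction) marked a probe of it well above background in the same channel, Cy5 or Cy3, on each of the 3 arrays. That held for 30 of the 37 genes, comprising 20 of the 21 epithelial genes, 8 of the 14 mesenchymal genes and both integrins. Because the filter rests on brightness, the counts below describe the 30 measured genes and not all 37.

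A probe of CLDN7, KRT8, KRT18 and VIM is shown for each gene, because a ratio belongs to its probe and not to the gene as a whole. These 60-base probes cross an exon junction in hg19 and are written 5′ to 3′ in the sense of the transcript, with no letters in capitals. The CLDN7 probe lies on the minus strand at chr17:7163822-7163986, a KRT8 probe on the minus strand at chr12:53294461-53294995, the KRT18 probe on the plus strand at chr12:53346116-53346554 and the VIM probe on the plus strand at chr10:17278347-17279256.
CLDN7: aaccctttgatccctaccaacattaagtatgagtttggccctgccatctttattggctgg
KRT8: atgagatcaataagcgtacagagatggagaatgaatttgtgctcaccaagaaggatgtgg
KRT18: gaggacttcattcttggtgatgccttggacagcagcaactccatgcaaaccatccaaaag
VIM: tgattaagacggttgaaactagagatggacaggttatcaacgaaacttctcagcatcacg
For CLDN7, KRT18 and VIM these are the brightest probes, which stand for the gene below. KRT8 was read by a brighter probe and is described with its keratin partner.

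Among the 30 measured genes, 6 fell and 2 rose in shSPINK1 cells at an adjusted p under 0.05 by limma with Benjamini-Hochberg adjustment over all 17061 genes. JUP, CLDN3, KRT8, CTNNA1, CDH1 and CLDN7 fell, all of them epithelial, and KRT18 and ITGB1 rose. The 8 calls are 26.7% of the measured genes, against 13.5% of all genes tested. Of all genes, 8.72% were called lower and 4.77% higher. In the epithelial class 6 of 20 were called lower and 1 higher, and in the mesenchymal class 0 of 8 were called in either direction and 0 had an unadjusted p under 0.05. Every change was small with the reported processing. Of the 8, 0 passed a further limit of 0.5 on the log2 scale, which 0.721% of all genes passed. That size depends on the processing: by the scanner software's own log ratios JUP (-0.51) and ITGB1 (0.52) lay beyond 0.5, and the rest of the 8 within it. With the log ratios computed by the scanner software, or with the deposited table made from them, 0 of the 8 were called, although each kept its direction and 12 of the 30 genes had an unadjusted p under 0.05. TGFB1, a dim mesenchymal gene, was among those 12, at -0.74 with the log ratios (unadjusted p = 0.000926 by limma). Of all genes, 0.0176% were called with either source, and 4092 of 17061 had an unadjusted p under 0.05 with the log ratios and 3837 of 17059 with the table. Without hairpin 3, 2 of the 30 genes were called lower and 0 higher, and the share of all genes called was 2.62%.

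**Figure D1:**
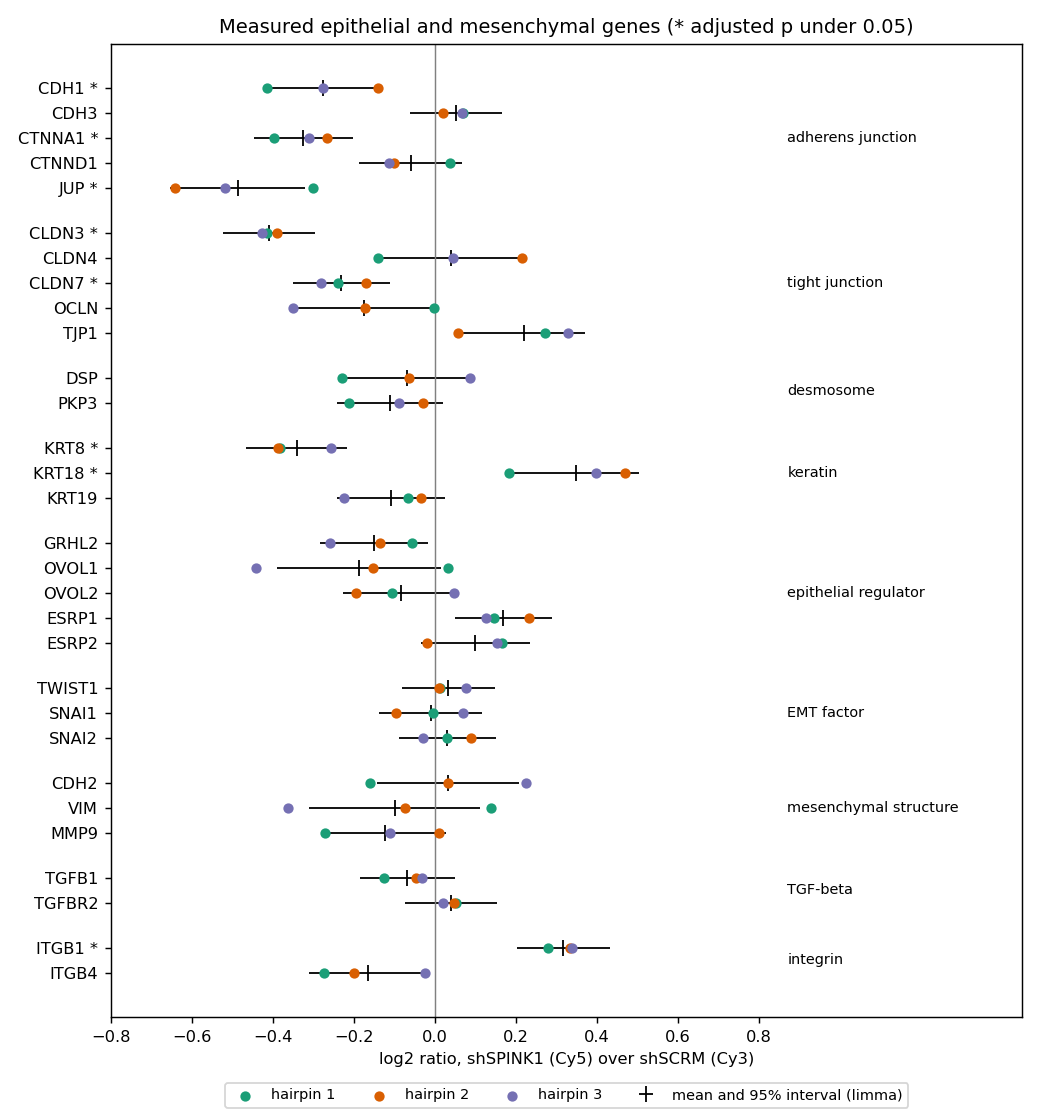
Log2 ratio of shSPINK1 (Cy5) over shSCRM (Cy3) for the 30 measured genes, grouped by role, with a point per hairpin and the mean with its 95% interval from limma. Of the genes marked with an asterisk, 6 lie to the left of 0 on all 3 arrays and KRT18 and ITGB1 to the right, while the EMT factors and TGF-beta genes lie close to 0.

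The adherens junction held 3 of the 6 falls among 5 measured genes. CDH1, which encodes E-cadherin, was at -0.41, -0.14 and -0.28 with hairpins 1, 2 and 3. All 3 arrays were below 0, and the lowest and highest differed by 0.27. Its mean of -0.28 (SE 0.063, adjusted p = 0.032 by limma) corresponds to a fall by 17.5%, with a 95% interval from -25.5% to -8.54%. The CDH1 probe, on the plus strand at chr16:68869214-68869273 (hg19), was spotted 10 times on each array, and all 10 spots were below 0 on each of the 3 arrays. Those spots ran from -0.51 to -0.35 with hairpin 1, from -0.23 to -0.08 with hairpin 2 and from -0.40 to -0.17 with hairpin 3. The spots of hairpins 1 and 2 therefore did not overlap, and the spots within an array had SDs of 0.051 to 0.079, under the SD of 0.14 between the hairpins. The call on CDH1 was lost without hairpin 3 (-0.28, adjusted p = 0.131 by limma) and without background correction (-0.27, adjusted p = 0.0578 by limma).

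**Figure D2:**
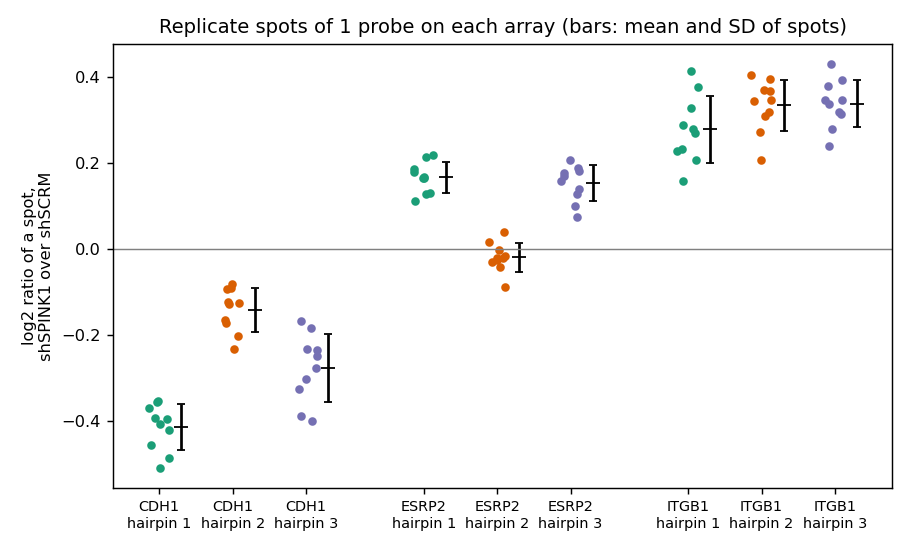
Log2 ratio of each of the 10 spots of the CDH1, ESRP2 and ITGB1 probes on the array of each hairpin, with the mean and SD of the spots as bars. All CDH1 spots lie below 0 and all ITGB1 spots above 0, and ESRP2 spots lie above 0 with hairpins 1 and 3 and around 0 with hairpin 2.

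JUP and CTNNA1 encode plakoglobin and alpha-catenin, which sit on the inner side of the junction, and plakoglobin is also part of desmosomes. JUP was at -0.30, -0.64 and -0.52, the largest mean fall of the 30 genes at -0.49 (SE 0.071, adjusted p = 0.0094 by limma), or a fall by 28.6% with a 95% interval from -36.4% to -19.9%. Hairpins 2 and 3 gave larger falls of JUP than hairpin 1, the reverse of CDH1. CTNNA1 was at -0.40, -0.27 and -0.31, with a mean of -0.32 (SE 0.052, adjusted p = 0.012 by limma). Leaving out hairpin 3 ended both calls, at -0.47 (adjusted p = 0.0545) for JUP and -0.33 (adjusted p = 0.0666) for CTNNA1 by limma. A dimmer CTNNA1 probe at chr5:138266534-138266593 gave -0.32, 0.24 and -0.19, a mean of -0.09 that changed sign between hairpins, so the probes of CTNNA1 disagreed. The call was lost when that probe stood for the gene (adjusted p = 0.618 by limma) and when both were averaged (-0.21, adjusted p = 0.106). CTNND1 (p120 catenin, which stabilises cadherins at the membrane) and CDH3 (P-cadherin) were not called, at -0.06 with a 95% interval from -0.19 to 0.07 and 0.05 with an interval from -0.06 to 0.17.

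Among the 5 tight junction genes, the claudins CLDN3 and CLDN7 fell. CLDN3 gave the tightest values of the called genes, at -0.41, -0.39 and -0.43, with a mean of -0.41 ± 0.019 (SD, n = 3 arrays) and an adjusted p of 0.00654 by limma. CLDN7 was at -0.24, -0.17 and -0.28, a mean of -0.23 (SE 0.051, adjusted p = 0.0287 by limma). The CLDN3 values hardly differed between hairpins, and the call held without any 1 of them, whereas the call on CLDN7 was lost without hairpin 2 (-0.26, adjusted p = 0.0606 by limma), without hairpin 3 (-0.21, adjusted p = 0.165) and without background correction (-0.24, adjusted p = 0.0602). CLDN4, another claudin, was at -0.14, 0.21 and 0.05, with a mean of 0.04 and a 95% interval from -0.13 to 0.21 that left its direction unsettled. Occludin (OCLN) was at -0.0013, -0.17 and -0.35, with a mean of -0.17 (adjusted p = 0.152 by limma). Without hairpin 1 OCLN was at -0.26 and was called (adjusted p = 0.0193), and without hairpin 3 it was at -0.09. TJP1, the ZO-1 scaffold beneath the tight junction, was at 0.27, 0.06 and 0.33. All 3 arrays were above 0, but its mean of 0.22 did not pass (adjusted p = 0.0657 by limma). It did after a further loess over the measured genes, at 0.26 (adjusted p = 0.0418), and without hairpin 2, at 0.30 (adjusted p = 0.0407).

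The promoter stretches of CLDN7 and JUP were picked after their values were seen, as those of genes that fell and that hold more than 1 copy of the E-box letters that SNAIL and ZEB proteins are known to bind. The sequences are the 250 bases before an annotated start in the RefSeq table of GRCh38.p14, on the minus strand at chr17:7262479-7262728 for CLDN7 and chr17:41785977-41786226 for JUP. Capitals mark CACCTG or its reverse complement CAGGTG.
CLDN7: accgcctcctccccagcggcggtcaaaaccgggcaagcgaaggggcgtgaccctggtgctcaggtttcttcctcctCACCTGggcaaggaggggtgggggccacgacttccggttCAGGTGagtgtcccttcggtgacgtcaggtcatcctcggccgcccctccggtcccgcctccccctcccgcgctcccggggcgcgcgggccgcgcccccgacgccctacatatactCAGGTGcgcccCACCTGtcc
JUP: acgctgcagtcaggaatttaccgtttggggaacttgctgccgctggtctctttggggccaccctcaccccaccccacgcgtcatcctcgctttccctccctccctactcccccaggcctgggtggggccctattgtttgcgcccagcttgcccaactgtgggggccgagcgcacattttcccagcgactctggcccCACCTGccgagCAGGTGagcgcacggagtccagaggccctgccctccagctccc
The 300-base window of CLDN7, which adds 50 bases after the start, held 5 matches on both strands together, a number reached by 0.094% of the 35116 windows in the table. That of JUP held 2, as 3.49% of windows did or exceeded. Each gene has another listed start whose window held 0. The table listed windows for 20 of the 37 genes. At least 1 match was found in 8 of 19 windows of epithelial genes (42.1%) and in 2 of 17 windows of mesenchymal genes (11.8%), against 20.6% of all windows. Windows of 1 gene are not independent of each other, and the 2 mesenchymal windows with a match were both of ZEB1. Of the other genes that fell, the windows of KRT8 and CTNNA1 held 0 and that of CLDN3 held 1. No window was listed for CDH1, so the comparison leaves it out. Matches were also found in the window of DSP (2) and those of OCLN (1 and 2), which were not called, and in 1 window of TJP1 (1), which was above 0 on all 3 arrays. A match describes letters and not a bound site, and binding was not measured here.

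Of the 2 desmosome genes, 0 were called by limma and 0 had an unadjusted p under 0.05. DSP (desmoplakin, which links the desmosome to keratin) was at -0.23, -0.06 and 0.09, with a mean of -0.07. PKP3 (plakophilin 3) was below 0 on all 3 arrays, with a mean of -0.11 and a 95% interval from -0.24 to 0.02. A dimmer probe of DSP gave -0.26, -0.24 and -0.18, which passed when that probe stood for the gene (mean -0.23, adjusted p = 0.0271 by limma), so the call on DSP depended on the probe.

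Keratins 8 and 18 pair in the same filament, yet their probes moved in opposite directions. KRT8 was at -0.38, -0.39 and -0.26, a mean of -0.34 (SE 0.053, adjusted p = 0.0112 by limma) or a fall by 21.1%. KRT18 was at 0.18, 0.47 and 0.40, a mean of 0.35 (SE 0.066, adjusted p = 0.0184 by limma), or a rise of 27.4%. All KRT8 values lay below 0 and all KRT18 values above it. The probes of each gene differed too. The exon-crossing KRT8 probe printed above, which was much dimmer, was also below 0 on all 3 arrays, with a mean of -0.22. The second brightest KRT8 probe, assigned to the transcript NR_045962 on the minus strand at chr12:53343241-53343300, close to the KRT18 probes, gave 0.05 (adjusted p = 0.586 by limma when it stood for KRT8), and the mean over the KRT8 probes was -0.17 (adjusted p = 0.0539). The other KRT18 probe gave 0.03, 0.44 and 0.23, with a mean of 0.23 (adjusted p = 0.0963 when it stood for the gene). The RefSeq table names 52 KRT8 pseudogenes and 68 KRT18 pseudogenes, and how far their transcripts reach these probes was not tested. Both KRT8 and KRT18 lay among the brightest 5% of genes, whose median ratio was 0.13. Against that median KRT8 was lower by a difference of -0.47 and KRT18 higher by 0.22. After the further loess that removes a trend with brightness, KRT18 was at 0.21 and was no longer called (adjusted p = 0.0618 by limma), and KRT8 was still called. The KRT18 call was also lost without background correction (0.27, adjusted p = 0.0512), without hairpin 2 (0.29, adjusted p = 0.0602) and without hairpin 3 (0.33, adjusted p = 0.0993), and its value was 0.12 with the scanner software's log ratios. KRT19, which marks simple epithelia, was below 0 on all 3 arrays with a mean of -0.11 and was not called. KRT5, the basal keratin, was not measured.

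**Figure D3:**
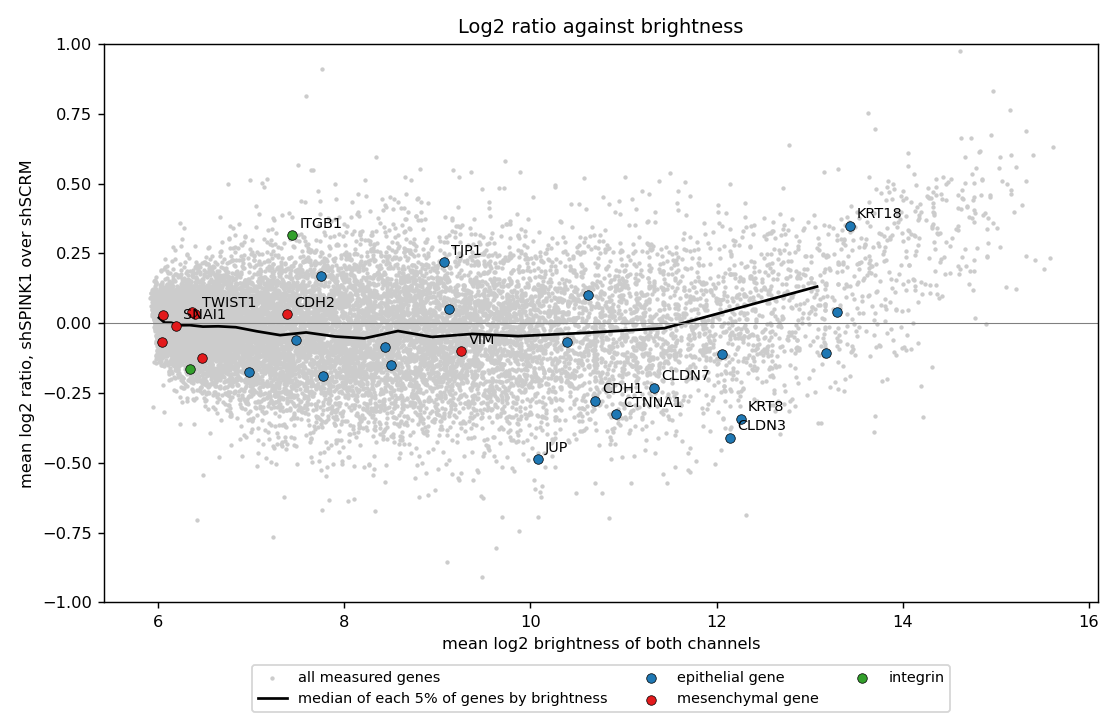
Mean log2 ratio against mean log2 brightness of both channels for all 17061 genes (grey; 2 genes beyond 1 lie outside the axis), with the median of each 5% of genes by brightness as a line and the measured genes in colour by class. The called epithelial falls lie on the bright side and under the line, KRT18 lies where the line itself is above 0, and the mesenchymal genes other than VIM and CDH2 lie at the dim end near the line.

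Of the 5 epithelial regulators, 0 were called by limma after adjustment, and 2 (GRHL2 and ESRP1) had an unadjusted p under 0.05. GRHL2, a transcription factor that activates E-cadherin and claudin genes, was below 0 on all 3 arrays, with a mean of -0.15 (adjusted p = 0.13 by limma). OVOL1 was at 0.03, -0.15 and -0.44, the widest spread of this group, with a mean of -0.19 (adjusted p = 0.197 by limma). Without hairpin 1 it was at -0.30 and was called (adjusted p = 0.0186), and without hairpin 3 it was at -0.06. OVOL2 had a mean of -0.08. The OVOL zinc finger proteins repress EMT factors, and the 95% intervals of both, from -0.39 to 0.02 and from -0.23 to 0.06, included 0. The splicing factors ESRP1 and ESRP2, which set epithelial splice forms, had means of 0.17 and 0.10. ESRP1 was above 0 on all 3 arrays at 0.15, 0.23 and 0.13 and missed the threshold (adjusted p = 0.0698 by limma), but passed it without background correction (0.26, adjusted p = 0.0476) and after the further loess (0.21, adjusted p = 0.0414).

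Of the 6 EMT transcription factors, TWIST1, SNAI1 and SNAI2 were measured, 0 were called by limma and 0 had an unadjusted p under 0.05. TWIST1 was at 0.01, 0.01 and 0.08, SNAI1 at -0.01, -0.10 and 0.07, and SNAI2 at 0.03, 0.09 and -0.03. Their 95% intervals ran from -0.08 to 0.15, from -0.14 to 0.12 and from -0.09 to 0.15. All 3 were dim, with Cy3 brightness of 39.1 to 65.5 over a median local background of 19 to 20, so the offset of 50 added to every spot draws their ratios toward 0 and the intervals bound the offset ratio and not the change in RNA. With the scanner software's log ratios, which hold no such offset and another correction of background and dye, TWIST1 was above 0 on all 3 arrays with a mean of 0.14 and an interval from -0.07 to 0.35. The interval of SNAI1 ran from -0.44 to 0.36 and that of SNAI2 from -0.20 to 0.57. The values of TWIST1 rest on its probe at chr7:19156462-19156521 (hg19), as its other probes were not well above background on any array. Another on the same transcript, at chr7:19155645-19155704, had brightness of 14.7 to 19.7 in Cy5 and 26.6 to 35.3 in Cy3. TWIST2, ZEB1 and ZEB2 had no probe well above background on any array in either channel. Their 7 probes, with the 4 of FN1, KRT5, MMP2 and SPARC, had Cy5 brightness of 13.9 to 19.6 and Cy3 brightness of 23.1 to 34.6, so no change in these 7 genes was detectable in either direction, and they were near background in control and shSPINK1 cells alike.

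**Figure D4:**
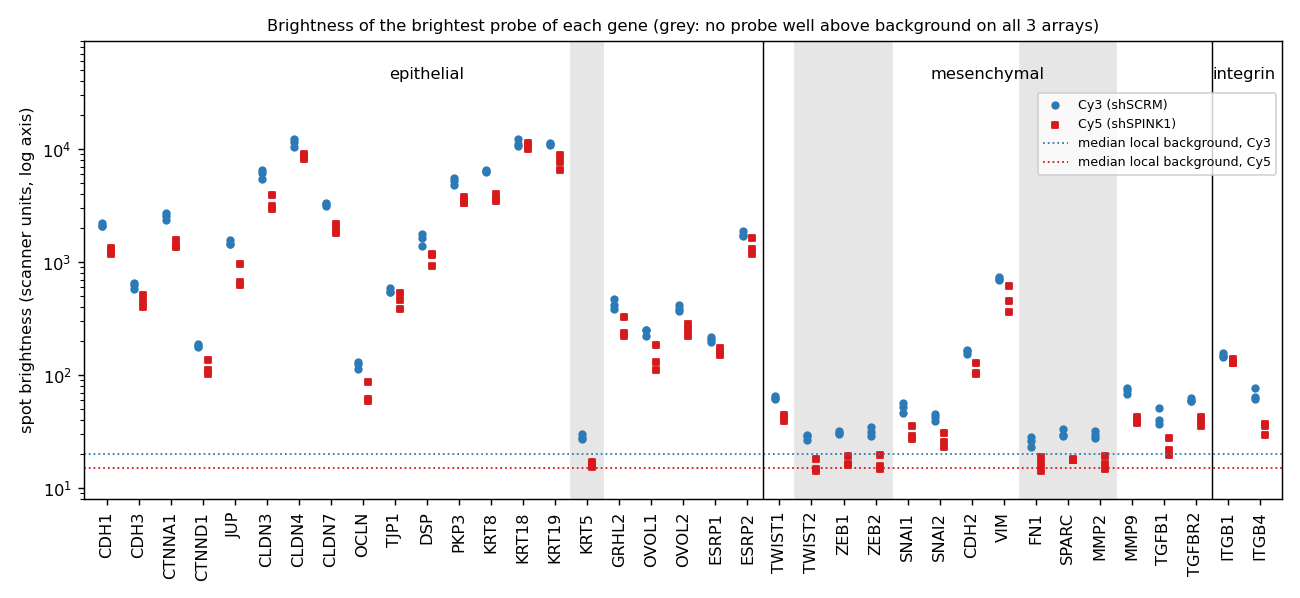
Brightness in scanner units (log axis) of the brightest probe of each of the 37 genes, with a point per array for Cy3 (shSCRM) and Cy5 (shSPINK1) and dotted lines at the median local background. The 7 genes shaded grey had no probe well above background and lie at 14.1 to 34.6, next to the dotted lines at 15 and 20. Levels of different probes are not comparable as RNA levels.

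The structural genes of the mesenchymal class varied between hairpins in place of moving together. VIM, the vimentin filament gene, was at 0.14, -0.07 and -0.36, with a mean of -0.10, a 95% interval from -0.31 to 0.11 and an adjusted p of 0.509 by limma. Hairpin 1 was above 0 and hairpin 3 below, a spread of 0.50, the widest of the 30 measured genes. VIM was measured well, with brightness of 361 to 612 in Cy5 and 702 to 742 in Cy3. CDH2, which encodes N-cadherin, ran the other way, at -0.16, 0.03 and 0.22, with a mean of 0.03 and a 95% interval from -0.14 to 0.21. On every array VIM and CDH2 lay on opposite sides of 0, and leaving out hairpin 3 turned both means, to 0.03 for VIM and -0.06 for CDH2. A dimmer CDH2 probe gave -0.05, 0.06 and 0.03, with a mean of 0.01. Its signs were the same, but its values did not rise steadily from hairpin 1 to 3. MMP9, a matrix protease, was at -0.27, 0.01 and -0.11, with a mean of -0.12 (adjusted p = 0.245 by limma). FN1 (fibronectin), SPARC and the protease MMP2 were among the genes not measured.

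TGFB1, the ligand, and TGFBR2, its type II receptor, were not called, at means of -0.07 and 0.04. TGFB1 was well above background in Cy5 on 2 of 3 arrays, and its small value depended on the processing. Its brightness was 27.6, 19.7 and 21.6 in Cy5, and the scanner software's log ratio was -0.82, -0.88 and -0.52 for hairpins 1, 2 and 3, a mean of -0.74 with a 95% interval from -1.01 to -0.48 and an adjusted p of 0.108 by limma. Those log ratios differ from the values above in background correction, dye normalization and offset together, and which of these moved TGFB1 was not tested.

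The integrin chains are receptors for the matrix, shared by epithelial and mesenchymal cells. ITGB1 rose, at 0.28, 0.33 and 0.34, with a mean of 0.32 (SE 0.049, adjusted p = 0.0112 by limma), or a rise of 24.5% with a 95% interval from 15.03% to 34.84%. All 10 spots of its probe were above 0 on each array, from 0.16 to 0.43 over all of them, and the hairpins differed by 0.06. The ITGB1 probe had brightness of 129 to 140 in Cy5 and 146 to 157 in Cy3. The offset of 50 therefore draws its ratio toward 0, and the percentage and its interval describe the offset ratio. Without background correction and offset ITGB1 was at 0.44. The scanner software's log ratio was also larger, at 0.52 with an interval from 0.32 to 0.72 (adjusted p = 0.11 by limma). The call was lost without hairpin 3 (0.31, adjusted p = 0.071 by limma). ITGB4, the beta-4 chain of hemidesmosomes, was at -0.27, -0.20 and -0.02, with a mean of -0.17 (adjusted p = 0.123 by limma). Its log ratio from the scanner software was -0.52 and was likewise not called.

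Set side by side, the measured epithelial genes had a median of -0.11 and the mesenchymal genes 0.01, against -0.01 for all 17061 genes. By hairpin the epithelial median was -0.09, -0.12 and -0.17, and the mesenchymal median stayed near 0, at 0.0040, 0.0093 and -0.0042. The epithelial median was below the mesenchymal one with every hairpin, by differences of -0.09, -0.13 and -0.16, and the difference was below 0 under every setting that was tried, from -0.34 to -0.07. Of the 20 epithelial genes, 10 were below 0 on all 3 arrays and 4 above, and of the 8 mesenchymal genes 1 was below and 2 above. Of all genes, 29.1% were below 0 on all 3 arrays and 21.2% above. The classes differ in brightness: the mesenchymal genes apart from VIM and CDH2 had Cy5 brightness under 50, and 0 of the 8 lay among the brightest 5% of genes, which held 5 of the 20 epithelial genes (CLDN3, CLDN4, KRT8, KRT18 and KRT19). The offset of 50 draws the ratios of these dim mesenchymal genes toward 0. With the scanner software's log ratios, which hold no such offset, TGFB1 was at -0.74, MMP9 at -0.32 and SNAI2 at 0.18. The mesenchymal median nevertheless stayed near 0, at 0.01 with those ratios and 0.0028 without background correction and offset. The share of the difference that goes with brightness or with the offset was not tested. When each array was centred on its median in place of loess, the median of all genes moved to -0.23 and 21 of the 30 genes were called lower, with 0 higher, while 61.1% of all genes were called. Relative to that shift, 17 of 20 epithelial genes and 3 of 8 mesenchymal genes were below the median of all genes. Centring leaves the trend with brightness in place, so this split cannot be told apart from the difference in brightness between the classes. The bright DSP and the dim TGFB1 were both at -0.07 with loess, but at -0.42 and -0.09 with centring. ITGB1 and KRT18 were still above it, at 0.28 and 0.26, and JUP was furthest below, at -0.61.

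**Figure D5:**
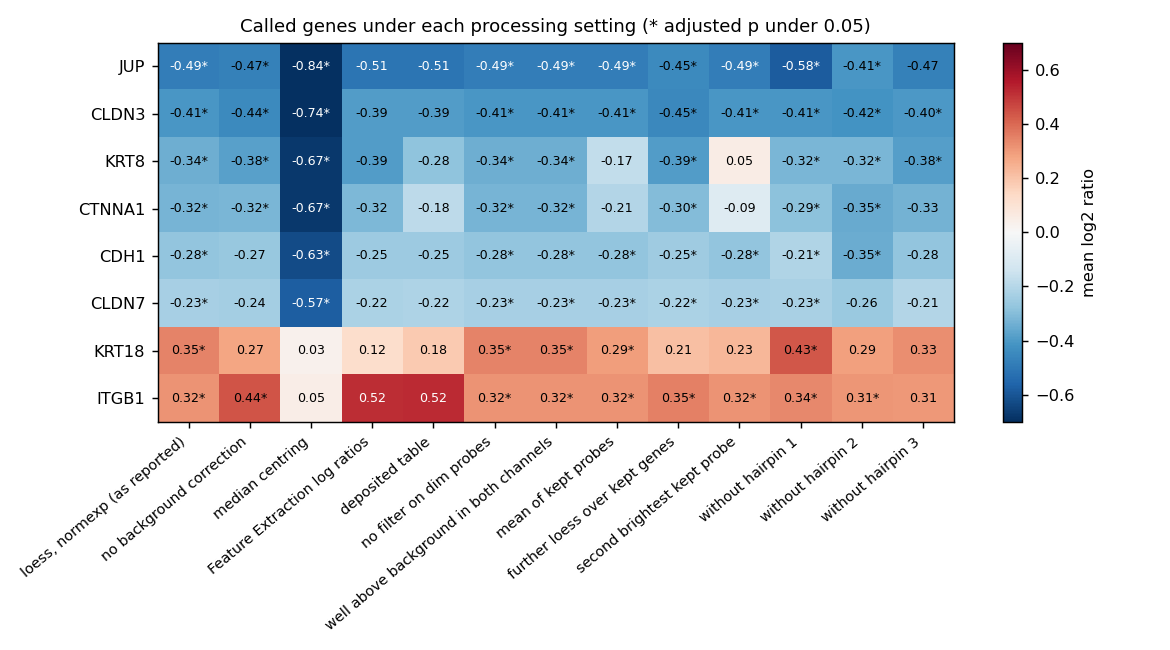
Mean log2 ratio of the 8 called genes (rows) under the reported processing and each alternative (columns), with an asterisk where the adjusted p was under 0.05. Direction was kept in every cell except KRT8 with its second brightest probe (0.05), while asterisks are absent from both columns made from the scanner software's ratios.

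Other genes of the same pathways were listed by role, 202 names of which 194 were on the array and 130 measured. Of these, 15 fell and 3 rose, 13.8%, close to the 13.5% of all genes. Junction genes outside the 37 had 4 falls and 1 rise among 30 measured, or 16.7%. PVRL2 (nectin-2, an adhesion receptor at adherens junctions) was at -0.50, -0.66 and -0.38, a mean of -0.51 (adjusted p = 0.00714 by limma). CLDN12 (-0.35) and F11R (-0.31), a claudin and the JAM-A adhesion molecule of tight junctions, fell, EPCAM (-0.23) made up the rest, and MPP5, the PALS1 polarity scaffold, rose by 0.25. Of 16 measured genes of the epithelial program, 5 fell and 0 rose (31.2%): the membrane protease PRSS8 (-0.52), the receptor ERBB3 (-0.33), the sorting adaptor AP1M2 (-0.29), the transcription factor KLF4 (-0.25) and the protease inhibitor SPINT1 (-0.22), of which KLF4, SPINT1 and EPCAM were named after their values were seen. The median of the 16 program genes was -0.0093, near the -0.011 of all genes, and that of the 30 junction genes was -0.07. PRSS8 was at -0.94, -0.40 and -0.21, and was lowest with hairpin 1. Of 4 further keratins measured, 0 were called by limma and 0 had an unadjusted p under 0.05.

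Further mesenchymal genes had 1 call among 29 measured, or 3.45%, against 13.5% of all genes, and 0 of these genes rose. The fall was that of TCF3 (-0.34), which encodes the E2A factors. The median of these 29 genes was -0.06, and 22 of the 51 listed were not measured. The TGF-beta pathway had 2 falls and 2 rises among 27 measured, or 14.8%, near the share of all genes. TGIF1 (-0.38), a corepressor of SMAD proteins, and LTBP4 (-0.20), which binds latent TGF-beta, fell, and INHBA (0.30), the activin A subunit, and SMAD1 (0.20), which carries BMP signals, rose. Among 24 measured integrin, laminin and focal adhesion genes, 3 fell and 0 rose, or 12.5%, also near the share of all genes. ILK (-0.35), the integrin-linked kinase, LAMB1 (-0.26), a laminin chain, and PXN (-0.24), the adaptor paxillin, were lower on all 3 arrays, while ITGB1 itself was higher.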

How the data were processed

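The authors deposited the scanner output of 3 arrays, with the intensity of every spot and its local background in both channels and a log10 ratio of Cy5 over Cy3 from Agilent Feature Extraction 11.5.1.1, after background and dye correction by that software. A gene-level table in log2, likewise deposited, held the ratio of the processed Cy5 and Cy3 signals: on each array 100% of 32086 gene names with 1 spot lay within 0.02 of it. The medians of its columns were -0.12, -0.17 and -0.20 for hairpins 1, 2 and 3. Probe coordinates (hg19) come from the annotation in the array files, and all 37 symbols were in the RefSeq table of GRCh38.p14.

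The intensities went through limma 3.58.1 under R 4.3.3: normexp on every spot (offset 50), removal of control spots and of 107 to 149 flagged outliers per array, loess within each array, and the mean over spots of a probe. The brightest kept probe stood for a gene, and 6 of the 30 measured genes had more than 1 kept probe. The mean log2 ratio of the 3 arrays against 0 was tested with limma and Benjamini-Hochberg adjustment over 17061 genes. In simulated data, 200 of 17061 genes were changed at a time. Of those changed by 0.25, 0.5 and 1 on the log2 scale, 0%, 45.5% and 92.5% were called. In the arrays themselves 13.5% of all genes were called, so the threshold was less strict there, and CLDN7 passed it at -0.23. The simulated shares therefore do not give the sensitivity of this comparison, and small changes may still be missed. No pair of arrays held the same values (at most 0.0345% of spots identical), and their number limits the precision. Members, classes and pathway lists were chosen with earlier results of these data known. Genes outside the 37 were named where they had the 3 largest falls or rises among the calls of their list. Alternatives changed, in turn, how background, dye bias and the trend with brightness were handled, which values, probes and filter were used, the size threshold, and which arrays entered. A further gene of the prostate marker list is not reported here.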

Additional observations from a re-analysis of the deposited data

How the results depend on the processing

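Of the single-gene values under 12 alternatives, 287 kept direction and side of the threshold, 18 passed it newly, 34 no longer passed it and 20 changed sign; the cause was not tested except where stated. With median centring, where the median of all genes was -0.23, the values that changed sign were CDH3 (-0.30), CLDN4 (-0.28), TJP1 (-0.13), ESRP1 (-0.12), ESRP2 (-0.25), TWIST1 (-0.087), CDH2 (-0.23) and TGFBR2 (-0.072). CLDN4 also turned with no background correction (-0.031), Feature Extraction log ratios (-0.17), the deposited table (-0.17) and the further loess (-0.090). OVOL2 turned with Feature Extraction log ratios (0.012) and the deposited table (0.01), and KRT8 turned with its second brightest probe (0.049), an alternative chosen after seeing the data. When each replicate was left out in turn, means ran from -0.048 to 0.13 for CLDN4 (below 0 without replicate 2), from -0.15 to 0.012 for DSP (above 0 without replicate 1), from -0.051 to 0.032 for SNAI1 (above 0 without replicate 2), from -0.063 to 0.13 for CDH2 (below 0 without replicate 3) and from -0.22 to 0.033 for VIM (above 0 without replicate 3).

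With median centring, 21 of the genes examined were called lower and 0 higher, with 85 and 1 other pathway genes and 10339 and 91 of all genes, and the epithelial and mesenchymal medians were -0.43 and -0.090. With Feature Extraction log ratios and with the deposited table alike, 0 genes examined and 0 other pathway genes were called by limma, and 3 of all genes were called lower and 0 higher, while 12 genes examined had an unadjusted p under 0.05. With a further limit of 0.5 on the mean, 0 genes examined, 2 lower and 0 higher other pathway genes, and 67 lower and 56 higher genes of all were left. The other pathway genes called higher were 5 with no background correction and 5 after the further loess, and 1 gene examined was called higher with the second brightest probe. The mesenchymal median was 0.0028 with no background correction, -0.01 in the deposited table, -0.017 with no filter on dim probes, 0.030 with both channels above background and 0.0012 with the second brightest probe. Leaving out each replicate gave 2 to 8 genes examined called lower and 0 to 2 higher, 7 to 17 and 0 to 6 other pathway genes, 278 to 1971 and 169 to 1272 of all genes, and a mesenchymal median from -0.020 to 0.017. The lowest counts were without replicate 3. No paired analysis was possible because every array already pairs a hairpin with shSCRM RNA and there is a single group of arrays. Signal over background limits the mesenchymal genes most, since 6 of 14 were not measured.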
